A study of Mus musculus with 3 samples.

Results

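The 8 genes described here encode the mouse opioid system: the receptors Oprm1, Oprd1, Oprk1 and Oprl1, and the precursor proteins Penk, Pdyn, Pnoc and Pomc from which the opioid peptides are cut. They were chosen by name from the 19504 genes measured, and each was read by 1 probe set, so no choice between probe sets was needed. Hippocampal RNA of 11-week-old male C57BL/6J mice had been pooled within each of 3 groups and read on an Affymetrix whole-transcript array, 1 for each pool. The NV pool held 3 non-restrained mice given vehicle into the lateral ventricle. The RS pool held 4 mice restrained for 6 h per day over 3 weeks and then given 20 μg of extracellular vesicles (EVs) from the serum of sedentary donors, and the RE pool held 4 mice restrained in the same way and given 20 μg of EVs from donors that had a wheel for voluntary running. RS differed from NV in both restraint and injected material, and these cannot be told apart. The title of the NV sample speaks of vesicles where its treatment note and the methods give vehicle, and the methods were followed. The sample descriptions name ventral hippocampus for all 3 pools, while the tissue field and the methods name hippocampus, and which part was taken is not settled here.

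Opioid peptides act on receptors that couple to inhibitory G proteins, which open potassium channels, close presynaptic calcium channels and restrain adenylyl cyclase, so that transmitter release and firing are damped. Oprm1 encodes the μ receptor, the main target of morphine, Oprd1 the δ receptor, Oprk1 the κ receptor and Oprl1 the receptor of nociceptin. Penk gives the enkephalins, which act on μ and δ receptors, Pdyn the dynorphins, which act on κ receptors, Pnoc gives nociceptin, and Pomc gives β-endorphin along with the melanocortins. In the hippocampus μ receptors are known mainly from GABAergic interneurons, enkephalin from interneurons and from fibers entering the dentate gyrus, and dynorphin from the mossy fibers of dentate granule cells.

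Signals are log2 values, so that a difference of 1 is a 2-fold change, and genes are called higher or lower at 2-fold, the threshold in the study's methods. With 1 array per group there is no replicate error, no p-value can be given, and every difference below is one between these arrays. Signals up to 6.01 were taken as background, a level below which 95% of the signals lay for 1452 olfactory, vomeronasal and taste receptor genes, which serve sensory tissues. The median over all probe sets was 6.64 (NV), 6.62 (RS) and 6.55 (RE). Of 9 marker genes of hippocampal pyramidal cells, 8 lay above the background level in NV and 9 in RS and RE. Because RNA was taken from whole tissue, fewer cells of a type and less RNA per cell cannot be told apart in any of these values.

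Start-site sequences were on hand for 5 of the 8 genes. Pdyn was level between RS and NV, but near the background level, where a probe set may respond little. Its sequence is shown with those of Oprm1 and Oprl1, receptor genes that were lower in RS than in NV. Each is the 250 bases before an annotated start site, 5′ to 3′ on the strand of the gene, from RefSeq on GRCm38.p6. The table holds 3 start sites for Oprm1, 3 for Oprl1 and 2 for Pdyn. Shown are the first and second of Oprm1, the third lying 6 bases from the second, the first of Oprl1 and the outermost of Pdyn. The Oprm1 windows lie on the plus strand, the upstream one at chr10:6758343-6758592 and the downstream one at chr10:6788320-6788569. The Oprl1 window lies on the plus strand at chr2:181714766-181715015 and the Pdyn window on the minus strand at chr2:129699939-129700188.
Oprm1 upstream start: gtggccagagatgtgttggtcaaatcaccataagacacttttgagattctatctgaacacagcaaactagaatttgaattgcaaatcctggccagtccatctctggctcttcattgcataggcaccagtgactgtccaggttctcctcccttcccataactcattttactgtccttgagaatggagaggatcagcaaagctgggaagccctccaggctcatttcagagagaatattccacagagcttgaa
Oprm1 downstream start: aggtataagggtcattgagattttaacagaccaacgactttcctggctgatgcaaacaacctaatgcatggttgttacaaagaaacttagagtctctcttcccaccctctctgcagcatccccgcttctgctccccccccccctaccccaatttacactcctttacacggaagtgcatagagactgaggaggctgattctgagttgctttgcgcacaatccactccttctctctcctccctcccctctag
Oprl1: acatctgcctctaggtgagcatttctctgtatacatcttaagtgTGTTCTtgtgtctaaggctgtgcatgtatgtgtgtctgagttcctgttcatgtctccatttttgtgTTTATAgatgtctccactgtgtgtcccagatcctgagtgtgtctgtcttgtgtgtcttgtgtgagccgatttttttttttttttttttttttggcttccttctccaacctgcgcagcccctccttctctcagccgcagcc
Pdyn: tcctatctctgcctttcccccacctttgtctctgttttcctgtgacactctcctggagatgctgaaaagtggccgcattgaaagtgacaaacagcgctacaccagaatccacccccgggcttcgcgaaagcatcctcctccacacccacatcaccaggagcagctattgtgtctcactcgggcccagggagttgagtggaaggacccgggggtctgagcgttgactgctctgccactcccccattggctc

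Capitals mark matches, on either strand, to 5 short motifs: the cAMP response element TGACGTCA, the AP-1 site TGANTCA, the hexamer AGAACA, which is a part of the glucocorticoid response element, the GC box GGGCGG and the TATA box TATAAA. The Oprl1 window shown held 1 match to the AGAACA hexamer and 1 to the TATA box, both on the opposite strand, and the third Oprl1 window, which is not shown, held 1 further match to the hexamer. The Oprm1 and Pdyn windows, shown or not, and the second Oprl1 window held no match to any of the 5. Of the genes whose windows are not shown, Oprd1 had matches to the GC box, and Pomc to the GC box and the TATA box. Among 32851 windows of the same length, 1.55% held the cAMP response element, 6.75% the AP-1 site, 16.1% the hexamer, 32.7% the GC box and 12.4% the TATA box. The GC content was 45.6% and 50.0% in the Oprm1 windows, 44.4% in that of Oprl1 and 57.2% in that of Pdyn, against a median of 52.4% over all windows. A match is a description of the letters, and no binding was measured here.

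Between RS and NV, 4 of the 8 genes were lower by at least 2-fold and 0 were higher. These were Penk (5.61-fold), Oprm1 (4.96-fold), Pnoc (2.75-fold) and Oprl1 (2.18-fold), that is, the enkephalin precursor and the μ receptor, and the nociceptin precursor with its receptor. Among all genes, 4.29% were lower and 3.52% higher at this threshold. The median difference of the 8 genes was -0.90, beside -0.01 over all genes, and 7 of the 8 differences were below 0. The genes had been chosen with earlier results of these arrays known, so these counts describe the 8 genes and are no independent evidence.

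**Figure D1:**
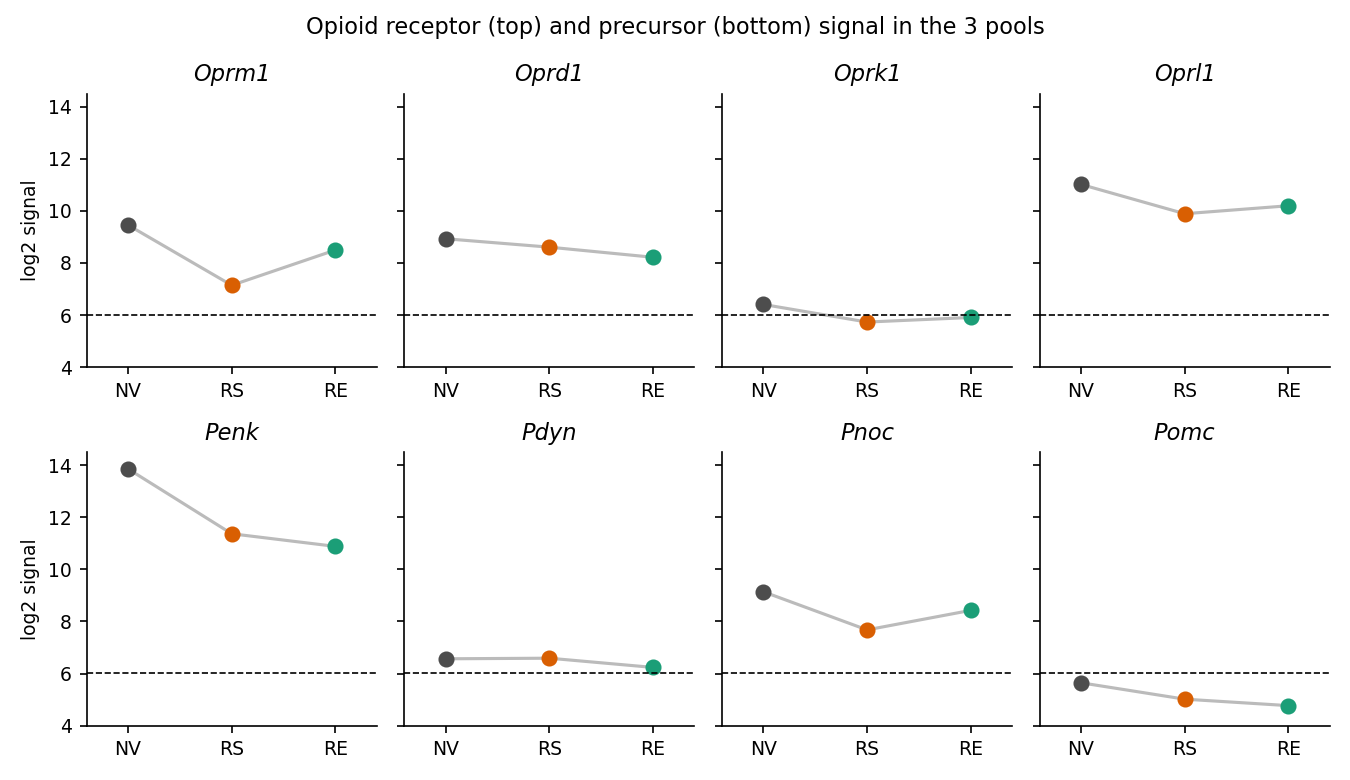
Log2 signal (y axis) of the 4 receptor genes in the top row and the 4 precursor genes in the bottom row, with 1 point for the array of each pool on the x axis and the background level of 6.01 as a dashed line. Penk stepped down from 13.85 (NV) to 11.36 (RS) and 10.88 (RE), while Oprm1 was lowest in RS at 7.14 and Pomc stayed under the dashed line in all 3 pools.

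Oprm1 gave 9.45 in the NV pool, 7.14 in the RS pool and 8.49 in the RE pool on the log2 scale. NV was the high pool and RS the low one, with RE between them and all 3 above the background level. The difference between RS and NV was -2.31, and 32 of the 19504 genes had a lower one. Of the 1597 genes whose mean signal lay within 0.5 of that of Oprm1, 2.82% were at least 2-fold lower in RS than in NV. Penk, the other gene of this μ and δ pairing with a large difference, had log2 signals of 13.85 (NV), 11.36 (RS) and 10.88 (RE). Here NV stood apart from both restrained pools. Penk differed by -2.49 between RS and NV, with 23 genes below it, and among the 982 genes of similar mean signal 1.32% were lower by at least 2-fold. Oprd1, the δ receptor gene, was at 8.93 (NV), 8.60 (RS) and 8.22 (RE). Its 3 values followed the order of Penk but stayed within 2-fold of each other, with a difference of -0.32 between RS and NV.

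Pnoc and Oprl1, the nociceptin precursor and receptor, both had NV as the high pool and RS as the low one. The signal of Pnoc was 9.14 (NV), 7.68 (RS) and 8.42 (RE), so that RS was 1.46 below NV. For Oprl1 the signals were 11.01, 9.89 and 10.19 in the same order, and RS minus NV was -1.12. All of these values lay well above the background level. Lower differences than these were seen in 235 genes for Pnoc and in 586 for Oprl1, so Oprl1 was close to the 2-fold threshold and in a more common range. Of genes of similar mean signal, 2.62% for Pnoc and 2.95% for Oprl1 were lower by at least 2-fold.

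Pdyn and Oprk1, the dynorphin precursor and the κ receptor, did not reach 2-fold in any of the 3 comparisons. The signal of Pdyn was 6.57 (NV), 6.59 (RS) and 6.24 (RE), just above the background level throughout, and RS and NV differed by 0.02. Oprk1 was at 6.41 in NV and below the background level in RS and RE, at 5.73 and 5.91, so the size of its difference of -0.68 is uncertain. Pomc was below the background level in all 3 pools, at 5.64 (NV), 5.02 (RS) and 4.77 (RE), and its differences have no firm size. The opioid genes that differed by 2-fold were therefore among those with signals clear of the background, where a low signal is not the limit.

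**Figure D2:**
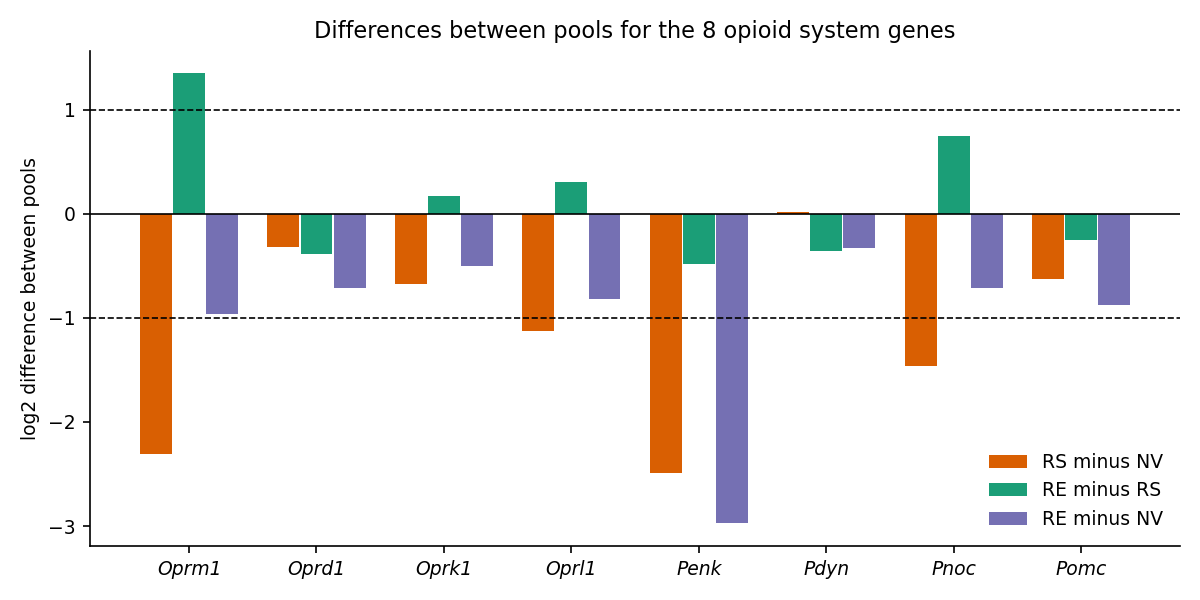
Log2 difference between pools (y axis) for each of the 8 genes (x axis), with bars for RS minus NV, RE minus RS and RE minus NV and dashed lines at 2-fold. Of the 8 bars for RS minus NV, 4 pass the lower line, whereas Oprm1 with 1.35 is the 1 gene to pass the upper line for RE minus RS and Penk with -2.97 the 1 gene to pass the lower line for RE minus NV.

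Between RE and RS, which share restraint and differ in the donors of the EVs, 1 of the 8 genes passed the threshold. Oprm1 was 2.55-fold higher in RE, a difference of 1.35, and 8 of the 19504 genes had a larger one. Among all genes 0.441% were higher and 0.723% lower by 2-fold, and among the genes of signal similar to Oprm1 0.438% were higher. The study had itself picked Oprm1 for this rise on the same arrays, so it is not an independent observation. Pnoc had the next largest difference of the 8, 0.75 or 1.68-fold, which lay inside the threshold, with 317 genes above it. The other differences ran from -0.48 for Penk to 0.30 for Oprl1, with -0.39 for Oprd1, -0.35 for Pdyn, -0.25 for Pomc and 0.18 for Oprk1. Of the 8 differences, 4 were above and 4 below 0, and their median was -0.04, beside -0.07 over all genes. Oprm1 and Penk, a receptor and the precursor of its ligand, thus had differences of opposite sign in RE against RS and of the same sign in RS against NV. Both comparisons use the RS array, so they do not bear on each other as separate measurements.

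**Figure D3:**
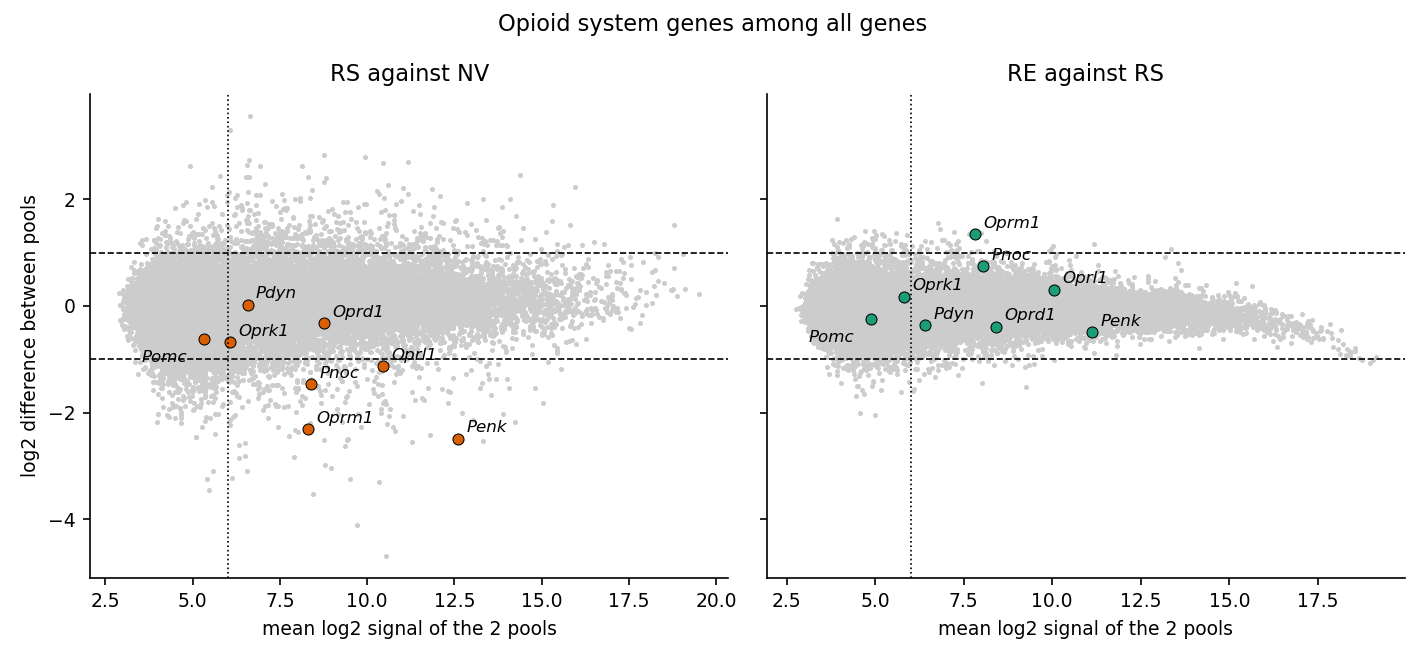
Log2 difference (y axis) against the mean log2 signal of both pools (x axis) for all 19504 genes in grey and the 8 opioid genes in color, for RS against NV on the left and RE against RS on the right. Dashed lines mark 2-fold and the dotted line the background level of 6.01. Penk and Oprm1 lie at the lower edge of the cloud on the left, and Oprm1 lies at its upper edge on the right.

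Between RE and NV all 8 differences were below 0, and Penk alone of the 8 was lower by at least 2-fold. It was 7.85-fold lower in RE, a difference of -2.97, and 6 of the 19504 genes had a lower one. Oprm1 lay just inside the threshold with -0.96, followed by Pomc with -0.88, Oprl1 with -0.82, Pnoc and Oprd1 with -0.71 each, Oprk1 with -0.50 and Pdyn with -0.33. The median of the 8 was -0.77, beside -0.06 over all genes, and among all genes 5.12% were lower and 2.87% higher by 2-fold. NV was the highest of the 3 pools for 7 of the 8 genes, a position it held for 41.8% of all genes, and Pdyn was the exception by 0.02. RS was the lowest pool for 4 genes, Oprm1, Oprk1, Oprl1 and Pnoc, and RE for the other 4. The comparison shares the NV array with RS against NV and the RE array with RE against RS.

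Genes with a pattern over the 3 pools most like that of each gene that passed 2-fold were sought by the distance between their log2 differences of RS and RE from NV, among 11408 other genes with a signal above the background level in at least 1 pool. The 3 closest to Oprm1 were Tpbg at a distance of 0.08, Plagl1 at 0.16 and Tmem255a at 0.17, and 4 genes lay within 0.25. Plagl1, a zinc finger transcription factor, was at 8.98 (NV), 6.54 (RS) and 7.92 (RE). Penk had 0 genes within 0.25. Its closest were Foxp2 at 0.40, Irx2 at 0.40 and Rgs6 at 0.41. Foxp2 and Irx2, both transcription factors, were above the background level in NV alone, so the size of their differences, and with it their distance, is uncertain. Rgs6 was at 10.68 (NV), 8.06 (RS) and 8.10 (RE), above background throughout. Pnoc had 27 genes within 0.25, led by Ly6h, Keg1 and Rpp25 at 0.02, 0.07 and 0.09, and Oprl1 had 160, led by Pld5, Nbdy and L1cam at 0.02 to 0.03. Keg1 lay below the background level in RS and RE, and Pld5 in RS. With 3 arrays a likeness of this kind is a description of 2 differences.

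Receptors act through inhibitory G proteins, which act on channels and on adenylyl cyclase. Against NV, the RS pool was higher for 4 of 8 effector genes measured and lower for 0. Among all genes 3.52% were higher and 4.29% lower by 2-fold in this comparison. Kcnj6, which encodes the GIRK2 channel subunit, was at 9.47 (NV), 11.75 (RS) and 11.41 (RE), so that both restrained pools were high, and RS exceeded NV by 2.27 or 4.84-fold. Kcnj3, which encodes GIRK1, was at 12.89, 14.12 and 13.70, with a difference of 1.24. Kcnj9, which encodes GIRK3, was at 7.65, 8.68 and 9.11, with a difference of 1.03. Adcy1, a calmodulin-stimulated adenylyl cyclase, differed by 1.48. Cacna1b, the pore subunit of the N-type calcium channel that opioid receptors close, had a difference of -0.96, inside the threshold, as were the cyclase genes Adcy8 with -0.65 and Adcy5 with -0.49. Kcnj5, which encodes GIRK4, was below the background level in all 3 pools, with -0.39 between RS and NV and -1.12 between RE and NV. Of the 8 effector genes 0 differed between RE and RS by 2-fold in either direction, and 98.8% of all genes also stayed within 2-fold there. Against NV, RE was also higher by 2-fold for Kcnj6 (1.94), Kcnj9 (1.46) and Adcy1 (1.35), beside 2.87% of all genes, and Kcnj3 had 0.81. All 4 of these genes have other roles in granule and pyramidal cells beside opioid signaling, and markers of these cells also differed in the same comparison. RS exceeded NV by 2-fold for 4 of 9 pyramidal cell genes and fell below it for 0, with a median difference of 0.80. These 4 were Neurod6 with 2.45, Pou3f1 with 1.93, Iyd with 1.62 and Itpka with 1.26. Pou3f1 was below the background level in NV, so the size of its difference is uncertain. RE was lower than RS for 2 of the 9, Pou3f1 with -1.10 and Iyd just at the threshold, beside 0.723% of all genes. The median of the 9 was -0.46. The part of these cells in the channel gene values was not tested.

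None of the 5 inhibitory G protein genes passed 2-fold in any comparison, with differences between RS and NV from -0.41 for Gnai1 to 0.57 for Gnao1. The same held for the 4 measured genes of receptor desensitization, where the arrestin gene Arrb1 had -0.61 and the receptor kinase gene Grk3 had -0.93. The listed genes Arrb2 and Grk2 had no value here. Among all genes 92.2% (RS against NV), 98.8% (RE against RS) and 92% (RE against NV) stayed within 2-fold, so these counts do not set the genes apart. Of 7 RGS genes, which shorten G protein signals, 1 was higher and 2 were lower in RS than in NV, beside 3.52% and 4.29% of all genes. Rgs14, known from the CA2 field, was at 8.77 (NV), 9.83 (RS) and 9.65 (RE). Rgs17 was at 10.69, 9.32 and 9.87, a difference of -1.37, and Rgs9, best known from striatum, was at 9.48, 8.46 and 8.16, a difference of -1.02. Rgs9 was also lower in RE than in NV, with -1.33.

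The measured genes of the enzymes that cut and clear the peptides stayed within 2-fold, and the listed genes Pcsk2 and Ece2 had no value here. Of 6 measured genes for peptide processing 0 passed 2-fold in any comparison, and between RS and NV they ran from -0.74 for Cpe, a carboxypeptidase of peptide granules, to 0.17 for Pcsk1n. Pcsk1, the prohormone convertase that starts the cutting of opioid precursors, was at 8.91 (NV), 8.41 (RS) and 8.99 (RE). Of 6 genes for peptide breakdown 0 passed, and Mme, the enkephalin-degrading peptidase neprilysin, was at 7.25, 6.95 and 6.79. The breakdown genes Anpep, Ace and Ece1 were below the background level in all 3 pools. Among all genes 92.2% stayed within 2-fold between RS and NV. Of 5 other opioid binding or modulating proteins and 6 transcription regulators known to act on opioid genes, 0 passed in any comparison. Kcnip3, a repressor of Pdyn, was at 15.48, 15.06 and 14.98, and Creb1, an activator of Penk and Pdyn, at 9.51, 10.23 and 10.15. Among 7 melanocortin genes, the receptors and accessory proteins for other products of Pomc, 2 passed 2-fold between RS and NV, Mc4r and Mc3r, but neither was above 6.01 in any pool. Over all 9 of these lists 6 of 54 genes were higher and 3 were lower in RS, compared with NV, with a median of -0.10. Between RE and RS 0 of 54 passed 2-fold, where 98.8% of all genes also stayed within it, so this count does not set the lists apart.

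**Figure D4:**
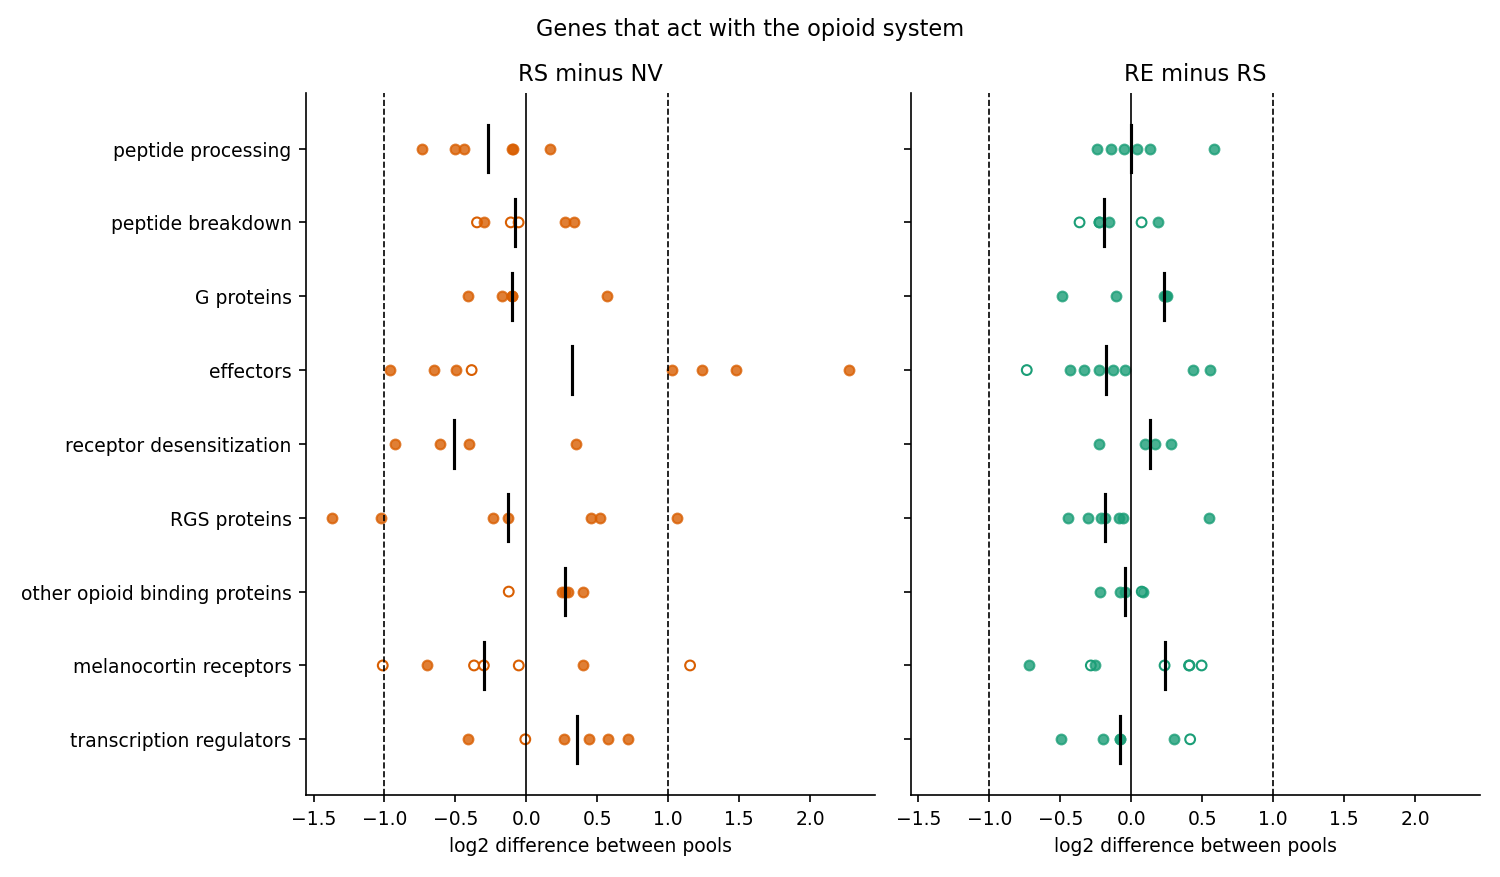
Log2 difference (x axis) of each gene in 9 lists of genes that act with the opioid system (y axis), for RS minus NV on the left and RE minus RS on the right. Filled points were above the background level in at least 1 pool, open points in none, bars are list medians and dashed lines mark 2-fold. The effector list holds 4 points past the upper line on the left, and 0 of 54 points pass a line on the right. Among all genes 98.8% stayed within 2-fold in RE against RS.

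Markers of the cells and regions in which opioid genes are used also differed between the pools. For the marker counts here and below, 4.29% of all genes were lower and 3.52% higher by 2-fold in RS against NV. These shares were 0.723% and 0.441% in RE against RS, and 5.12% and 2.87% in RE against NV. Of 11 genes of GABAergic interneurons, the cells in which Oprm1, Penk and Pnoc are known to be used, 3 were lower and 0 higher in RS than in NV, and their median difference was -0.66. These 3 were Gad2 with -1.57, the vesicular GABA transporter gene Slc32a1 with -1.42 and Reln with -1.04. Pvalb with 0.95 and Lhx6 with 0.68 were on the other side of 0, inside the threshold. The log2 of the summed signal of the 11 genes was 16.47 (NV), 15.76 (RS) and 16.10 (RE). Sst made up 78.2% to 82.6% of that sum, and without it the sums were 14.27, 13.36 and 13.58. All 11 were above the background level in each pool. Sst and Npy, made by interneurons as Pnoc is, had differences of -0.66 and -0.33, inside the threshold. Between RE and RS the median of the list was 0.19, with 0 of 11 past 2-fold, beside 1.35 for Oprm1, 0.75 for Pnoc and -0.48 for Penk. The part of interneuron content in the opioid values was not tested.

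Pdyn is known from dentate granule cells, and its signal and that of their markers are given side by side. The RS pool exceeded NV by 2-fold for 8 of 11 granule cell genes and was lower for 0, with a median difference of 2.64, while Pdyn differed by 0.02. Pdyn lay at most 0.58 above the background level, where a probe set may respond little, so its values do not show that Pdyn RNA was unchanged. Prox1, the transcription factor that defines these cells, differed by 2.70. Dsp, Tdo2 and Lct were below the background level in NV, so the size of their differences is uncertain. The log2 of the summed signal of the list was 13.87 (NV), 14.93 (RS) and 14.65 (RE), and 12.72, 14.56 and 14.20 without Calb1. The list holds 3 further genes that were level, Plk5 with 0.01, Calb1 with -0.22 and Pdzd2 with -0.34. Between RE and RS the list had a median of -0.33 and Pdyn -0.35, both inside the threshold. Of the 11 genes 1, Tdo2 with -1.08, was lower in RE by 2-fold, beside 0.723% of all genes.

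All 6 ventral hippocampus genes passed 2-fold on the lower side in RS against NV, with a median of -2.22. Coch was below the background level in RS and RE. In the same comparison Penk had -2.49, Oprm1 -2.31, Pnoc -1.46 and Oprl1 -1.12, and the other 4 opioid genes stayed within 2-fold. Between RE and RS 2 of the 6, Nr2f2 with 1.15 and Dcn with 1.06, were higher, and the median was 0.86. Between RE and NV 4 of the 6 were lower. The log2 of the summed signal was 16.07 (NV), 14.20 (RS) and 15.14 (RE), and 14.79, 13.25 and 14.31 without the brightest gene, Timp2. Oprm1, Pnoc, Oprl1 and, near the background level, Oprk1 had the same order of pools. Penk, Oprd1, Pdyn and Pomc did not. This order was not particular to the ventral genes. The summed log2 signals of the interneuron list (16.47, 15.76 and 16.10 in NV, RS and RE) and the dorsal midbrain list (13.26, 11.62 and 11.75) also had it. So did the thalamus list (14.15, 12.71 and 12.77), though not without its brightest gene, Ntng1. The striatum and habenula lists did not. The part of ventral tissue in the opioid values was not tested.

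Markers of tissue outside the hippocampus also differed. RS was 2-fold or more below NV for 5 of 7 dorsal midbrain genes, with a median of -1.74, and summed log2 signals of 13.26 (NV), 11.62 (RS) and 11.75 (RE), of which Meis2 made up 94.1% or more. Of these 7 genes, 4 were above the background level in NV and 1, Meis2, in RS and RE. Of 9 striatum genes, the region with the strongest known use of Penk, 4 were lower and 0 higher in RS than in NV. These were Tac1 with -2.34, Rxrg with -1.89, Drd1 with -1.45 and Rgs9 with -1.02. Rxrg was below the background level in RS, so the size of its difference is uncertain. Drd2, the receptor of the striatal cells that make enkephalin, was at 6.33 (NV), 6.32 (RS) and 5.57 (RE). It lay just above the background level in NV and RS and below it in RE, so its values do not show that Drd2 RNA was unchanged. Pde10a differed by 0.05 between RS and NV. The summed log2 signal of this list was 13.28 (NV), 12.62 (RS) and 12.45 (RE). Without Pde10a, its brightest gene, the sums were 12.38, 10.53 and 10.66, so the order of RS and RE rested on that 1 gene. Of 11 thalamus genes 2 were lower and 2 higher in RS against NV, with summed log2 signals of 14.15, 12.71 and 12.77. The lower ones were Tcf7l2, a defining transcription factor of thalamus, with -4.68, the lowest difference of all 19504 genes, and Slc17a6, a vesicular glutamate transporter, with -3.30. The higher ones were Prkcd with 1.98 and Plekhg1 with 1.69. Of 9 habenula genes, a region rich in μ receptors, 2 were lower, Pou4f1 with -3.24 and Chrna3 with -1.34, both at background in RS, and the summed log2 signals were 11.43, 10.54 and 10.52, of which Nwd2 made up 69.8% or more. The defining habenula gene Gpr151 was below the background level in all 3 pools. The part of unequal tissue in the opioid values was not tested, and with 1 pool per group it cannot be told apart from the treatments.

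Pomc is made in the hypothalamus and pituitary, and most listed markers of both were below or near background. Of 7 anterior pituitary genes 1 was above the background level, Tshb at 7.12 (NV), 6.90 (RS) and 6.33 (RE), while Gh and Prl were below it in each pool. Of 9 hypothalamus genes 3 were above it in at least 1 pool, Cartpt, Oxt and Hdc, and Avp, Hcrt and Pmch were below it in each pool. Cartpt was clear of it throughout, at 8.33 (NV), 8.17 (RS) and 7.92 (RE). None of these 16 genes passed 2-fold in any comparison. Among all genes 92.2% (RS against NV), 98.8% (RE against RS) and 92% (RE against NV) stayed within it, so this count does not set them apart.

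**Figure D5:**
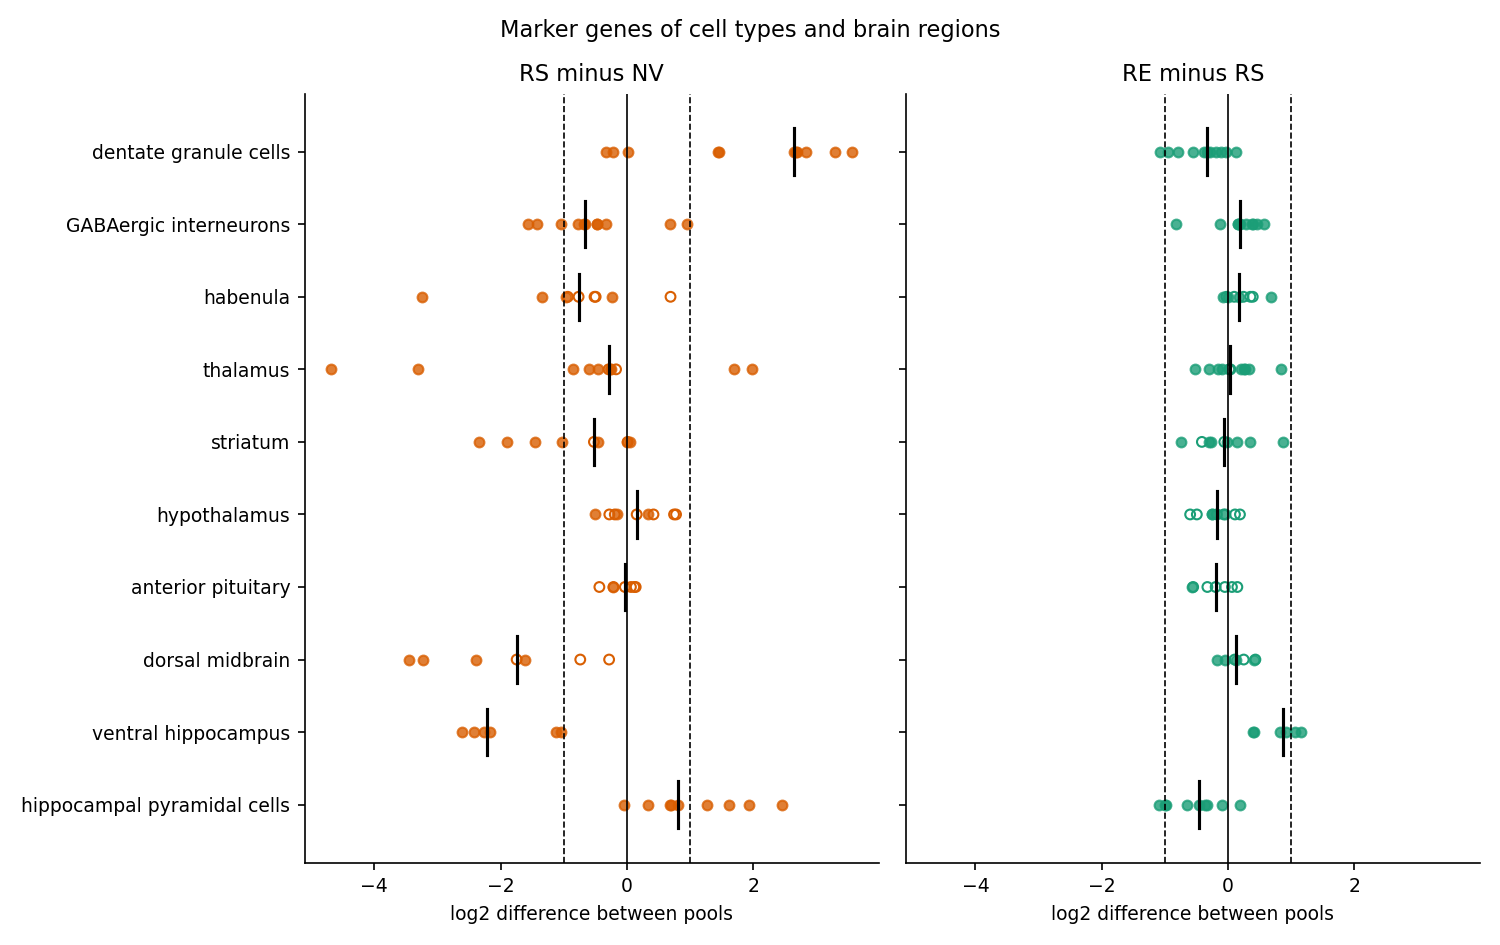
Log2 difference (x axis) of marker genes of 10 cell types and brain regions (y axis), for RS minus NV on the left and RE minus RS on the right, with filled points above the background level in at least 1 pool, bars at list medians and dashed lines at 2-fold. On the left dentate granule cell genes have a median of 2.64 and ventral hippocampus genes one of -2.22, and on the right the ventral hippocampus median is 0.86.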

How the data were processed

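Gene expression had been measured in 3 pools of hippocampal RNA with 1 array each. The authors deposited log2 signals for 22205 probe sets. Affymetrix Power Tools and RMA are named in the submitters' processing notes, and Affymetrix Command Console in the methods, without versions. Some deposited log2 values exceed 16, the ceiling of a 16-bit scan, by a step that the sources used here do not give.

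Symbols came from the platform annotation, in which 19571 probe sets had 1 symbol and 2634 none. Of the genes, 55 had more than 1 probe set and were read by their brightest. All 8 opioid genes matched their RefSeq gene identifiers. Differences of log2 values were formed over all genes, with no test, since no group had replicates. Array number limits the precision, and arrays have no read depth.

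The members and lists were chosen with earlier results of these data known. Named genes were the 8 members, listed genes past 2-fold with the higher array above background, and the 3 nearest patterns. Other list members are named as context and were chosen after their values were seen. Alternatives were a low-signal filter, median centring, lowess (span 0.3), quantile normalization, the mean of probe sets, a 1.5-fold threshold and the mean of RS and RE. Work was done in python 3.11.15 with matplotlib 3.10.9, statsmodels 0.14.6, pandas 2.3.3 and numpy 2.4.6.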

Additional observations from a re-analysis of the deposited data

How the results depend on the processing

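Of 124 values of single opioid genes under the alternatives, 121 kept their direction where called and their side of the 2-fold threshold. Some of these could not have changed. The low-signal filter only leaves genes out, and the mean of probe sets equals the reported value because each opioid gene had 1 probe set. The count therefore overstates how far the values were put to a test. The exceptions were Oprl1, at -0.97 when the mean of RS and RE was set against NV, and Oprm1 in RE against NV, at -1.04 with the lowess trend removed and -1.05 after quantile normalization, so that 2 opioid genes were lower in RE than in NV under either setting in place of 1. At a 1.5-fold threshold RE exceeded RS for 2 genes, Oprm1 and Pnoc, and was below NV for 6, while 3.46% of all genes were higher and 16% lower in these comparisons. RS was then below NV for 6 genes in place of 4, Oprk1 and Pomc being added, beside 13.2% of all genes. Oprk1 was below the background level in RS, and Pomc in every pool. Between RS and NV the difference of Penk ran from -2.73 to -2.48, that of Oprm1 from -2.41 to -1.63 and that of Pnoc from -1.56 to -1.09. Between RE and RS that of Oprm1 ran from 1.35 to 1.42. Pomc was left out of all comparisons, and Oprk1 out of RE against RS, by the filter on low signal. No group had a second array, so no array could be left out and the spread between mice was not measured.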
